A study of Mus musculus with 7 samples.

Results

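Gene expression was compared between CD4+CD25+ cells sorted from the livers of wild type mice on 2 diets, across all genes. The comparison holds 4 of the 7 libraries of the series, which are all of its wild type libraries. WT_NCD stands for C57BL/6 mice on a normal control diet (2 libraries) and WT_MCD for C57BL/6 mice on a diet deficient in methionine and choline (2 libraries), both kept on their diet for 4 weeks, per the labels. The other 3 libraries, from CD73 knockout mice on the deficient diet, entered only the estimate of spread between libraries. In every group CD4+CD25+ cells were sorted by flow cytometry from stained liver immune cells. This pair of surface markers enriches regulatory T cells (Treg) but does not include FOXP3, the nuclear protein that defines them. The labels do not say whether a library is 1 animal or a pool, nor whether different animals gave the replicates, so p-values here reflect how much these libraries differ from each other, and that spread may be technical. The labels give no age or sex of the mice.

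Methionine is the precursor of S-adenosylmethionine, the methyl donor of the cell, and choline is built into phosphatidylcholine, the main membrane phospholipid. A liver without both cannot export enough fat in lipoproteins, so a methionine and choline deficient diet is a standard way to induce fatty liver with inflammation in mice. Treg restrain inflammation in such tissue; those that circulate through lymph nodes carry the homing receptor CCR7, while those resident in tissue have lost it and carry more activation receptors. The diet comparison asks how the sorted liver cells differ between mice on the deficient and on the control diet. No measure of liver fat was used here.

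Levels are given as CPM, counts scaled to TMM-adjusted library sizes, with the WT_NCD libraries (replicates 1 and 2) first, set against the WT_MCD libraries (replicates 1 and 2). A positive log2 fold change means higher in WT_MCD. Total counts of the 4 libraries ran from 20138978 to 24398738, and an uncounted gene could have had 0.129 to 0.158 CPM in a library (a limit of 3 counts, for counting error alone). Libraries of a group differed far beyond counting error, and the fitted coefficient of variation between libraries of a group was 91.3%. The sorted phenotype was read in 4 genes. Cd4 had 773 and 2137 against 1324 and 609.7 CPM. Il2ra, which encodes CD25, had 319.8 and 608 against 791 and 193 CPM, and Foxp3 had 181 and 287 against 141 and 108 CPM. All 3 were counted well above the floor in every library, as was Cd3e of the T cell receptor complex with 135 and 303 against 189 and 93.5 CPM. Nt5e, the CD73 gene that is intact in both groups, had 243 and 241 against 177 and 87.6 CPM (log2 fold change -0.87, SE 0.53).

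The libraries also held RNA of cells that the gate should remove. Genes of NK, dendritic and B cells, described below, averaged higher in both WT_MCD libraries than in both WT_NCD libraries. Macrophage RNA instead differed more between the libraries of a diet than between the diets. The 20 Kupffer cell genes summed to 11784 and 1332 against 2659.8 and 34452 CPM, and 1 of them, the macrophage lysozyme Lyz2, had 7757 and 845 against 1837 and 26675 CPM. None of the 19 of them that were tested was at 0 in any of the 4 libraries. WT_MCD replicate 2 therefore stands apart as the library richest in macrophage RNA and WT_NCD replicate 2 as the poorest. WT_NCD replicate 1 held more of it than WT_MCD replicate 1. Where a result moves with these levels, values without WT_MCD replicate 2 are given. In bulk RNA, fewer cells of a type and less RNA per cell cannot be told apart, here and throughout.

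Of 14784 genes tested with edgeR's quasi-likelihood test, none passed a Benjamini-Hochberg adjusted p of 0.05 (0.0% called; smallest adjusted p 0.490). At an unadjusted p under 0.05, 586 genes were higher (3.96%) and 301 were lower (2.04%) on the deficient diet. DESeq2 called 257 genes higher (1.74%) and 50 lower (0.338%) at an adjusted p under 0.05, and 135 of these 307 were not counted at all in WT_NCD. Without WT_MCD replicate 2 the 586 became 343 and the 301 became 281, and edgeR run without a filter on low counts called 54 genes, 53 higher and 1 lower. In 2481 genes (16.8%) both WT_MCD libraries stood above both WT_NCD libraries, and in 2187 genes (14.8%) both stood below. The median log2 fold change over all tested genes was 0.04, with 52.3% of genes above 0. These shares are the background for every count of genes below. Since no gene passed the edgeR test over all genes, single genes are described only as standing higher or lower.

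**Figure D1:**
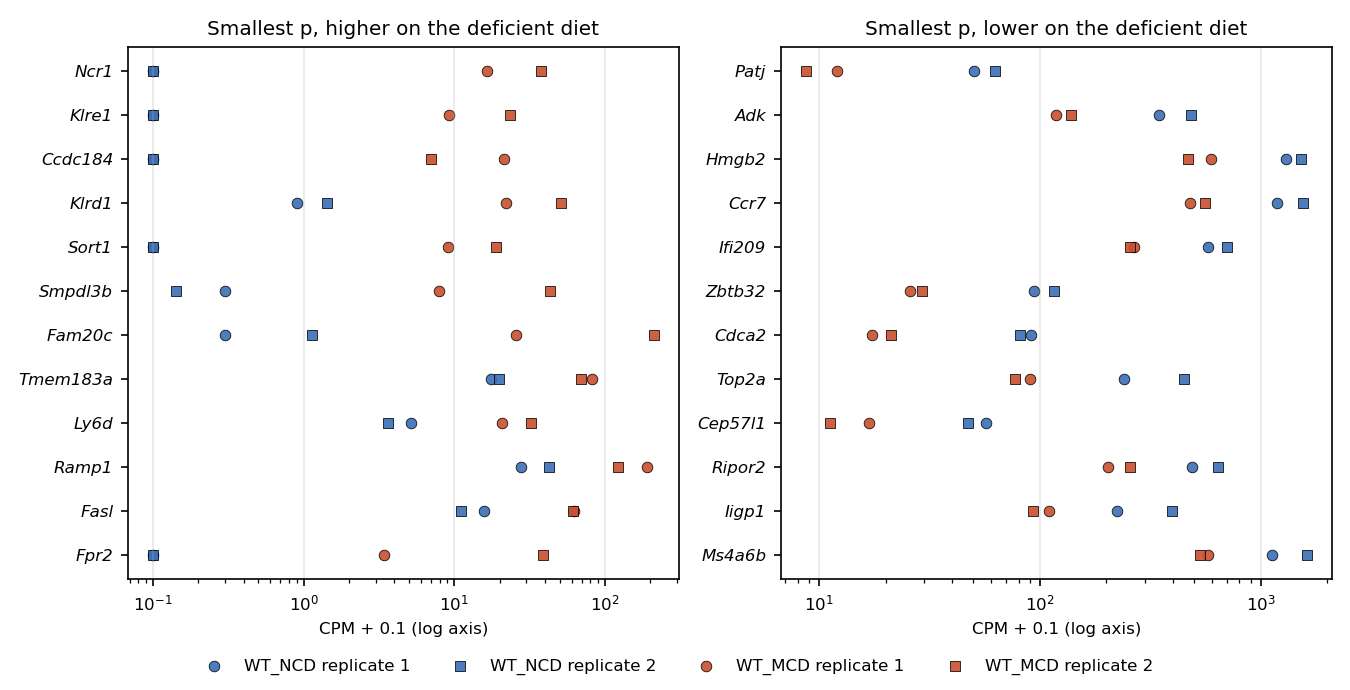
Level of the 24 genes taken by the rule for named genes, 12 in each direction, in CPM with 0.1 added on a log axis; circles and squares are replicates 1 and 2, blue WT_NCD and red WT_MCD. By the rule the libraries of the 2 diets do not overlap for any of these genes, and the leftmost points of Ncr1, Klre1, Ccdc184, Sort1 and Fpr2 are libraries with no count.

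The 12 genes with the smallest p among those higher on the deficient diet came from 391 genes that were protein coding, averaged at least 5 CPM and had a gap between the diets wider than the range within either diet. They were led by receptors of natural killer (NK) cells. Ncr1 (ENSMUSG00000062524, chromosome 7, 4337724 to 4345164, GRCm38) encodes NKp46, the activating receptor that marks NK cells and related innate lymphocytes. It had no count against 16.5 and 37.7 CPM, which is at least 379-fold higher when WT_NCD is set to a limit of 3 counts over both libraries. Klre1, an NK receptor of the lectin family, had no count against 9.11 and 23.4 CPM (at least 227-fold higher). Klrd1 (ENSMUSG00000030165, chromosome 6, 129591782 to 129598775, GRCm38) encodes CD94, the partner chain of the NKG2 receptors. It had 0.809 and 1.33 against 21.8 and 51.1 CPM (log2 fold change 5.08, SE 0.76). Fasl (ENSMUSG00000000817, chromosome 1, 161780689 to 161788495, GRCm38), the death ligand of cytotoxic and activated T cells, had 15.7 and 10.95 against 61.8 and 61.2 CPM (log2 fold change 2.21, SE 0.40). Its 2 WT_MCD libraries were nearly equal, and the part of other cells' RNA in this gene was not tested.

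The other genes on that side belong to several kinds of cells. Ramp1, the receptor subunit through which the neuropeptide CGRP acts, had 27.5 and 42.7 against 190.3 and 122 CPM (log2 fold change 2.15, SE 0.39). Tmem183a had 17.5 and 19.6 against 81.3 and 69.3 CPM (log2 fold change 2.02, SE 0.34). Both were higher in each WT_MCD library by a similar amount. Ly6d, which marks plasmacytoid dendritic cell and B cell precursors, had 5.06 and 3.52 against 20.7 and 32.4 CPM (log2 fold change 2.63, SE 0.45). Sort1, the sorting receptor sortilin, had no count against 8.93 and 18.8 CPM (at least 195-fold higher), and Ccdc184 had no count against 21.3 and 6.88 CPM (at least 208-fold higher). The remaining 3 were carried mostly by 1 library. Smpdl3b, a lipid-modifying phosphodiesterase of the cell surface, had 0.202 and 0.0429 against 7.76 and 43.3 CPM, the secretory pathway kinase Fam20c had 0.202 and 1.03 against 25.4 and 211 CPM, and the formyl peptide receptor Fpr2 had no count against 3.3005 and 38.6 CPM. These 3 were highest in WT_MCD replicate 2, as were the macrophage genes, and the part of macrophage RNA in them was not tested.

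Among the 459 genes that met the same conditions on the lower side, the 12 with the smallest p included abundant T cell genes and genes of dividing cells. Patj, a scaffold of cell polarity, had 50.2 and 62.7 against 11.9 and 8.61 CPM (log2 fold change -2.46, SE 0.41). Adk (ENSMUSG00000039197, chromosome 14, 21052574 to 21448569, GRCm38) encodes adenosine kinase, which turns adenosine into AMP and also clears the adenosine released when S-adenosylhomocysteine is split in the methionine cycle. It had 345 and 485 against 118 and 138 CPM (log2 fold change -1.698, SE 0.31). Ccr7 (ENSMUSG00000037944, chromosome 11, 99144196 to 99155077, GRCm38), the lymph node homing receptor, had 1179 and 1547 against 479 and 559.9 CPM (log2 fold change -1.39, SE 0.27). In each of these genes the lower WT_NCD library stood more than 2 times above the higher WT_MCD library.

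Hmgb2, a DNA-bending chromatin protein of dividing cells, had 1302 and 1521 against 594 and 466 CPM (log2 fold change -1.41, SE 0.27). Top2a, the topoisomerase that untangles chromosomes, had 241 and 451 against 90.5 and 76.8 CPM (log2 fold change -2.05, SE 0.44), and Cdca2, which targets a phosphatase to chromosomes in mitosis, had 90.8 and 81.4 against 17.2 and 21.1 CPM (log2 fold change -2.17, SE 0.46). All 3 act in cell division, which is described below. The interferon-inducible Ifi209 had 577 and 706 against 266 and 256 CPM (log2 fold change -1.297, SE 0.27), and Iigp1, a GTPase induced by interferon gamma, had 222 and 395 against 109 and 92.5 CPM (log2 fold change -1.61, SE 0.36). Zbtb32, a zinc finger repressor in lymphocytes, had 93.5 and 115 against 25.7 and 29.2 CPM (log2 fold change -1.93, SE 0.41). Ripor2, an inhibitor of RhoA in T cells, had 489 and 639 against 204 and 255 CPM (log2 fold change -1.299, SE 0.28), and Ms4a6b, a membrane protein of T cells, had 1126 and 1618 against 574 and 532 CPM (log2 fold change -1.31, SE 0.30). Cep57l1, a paralogue of a centrosome protein, had 56.96 and 46.98 against 16.7 and 11.1 CPM (log2 fold change -1.901, SE 0.41). DESeq2 called all 24 genes of this rule. The rule had chosen them by small p and a wide gap in these same libraries, so these calls are not separate support.

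**Figure D2:**
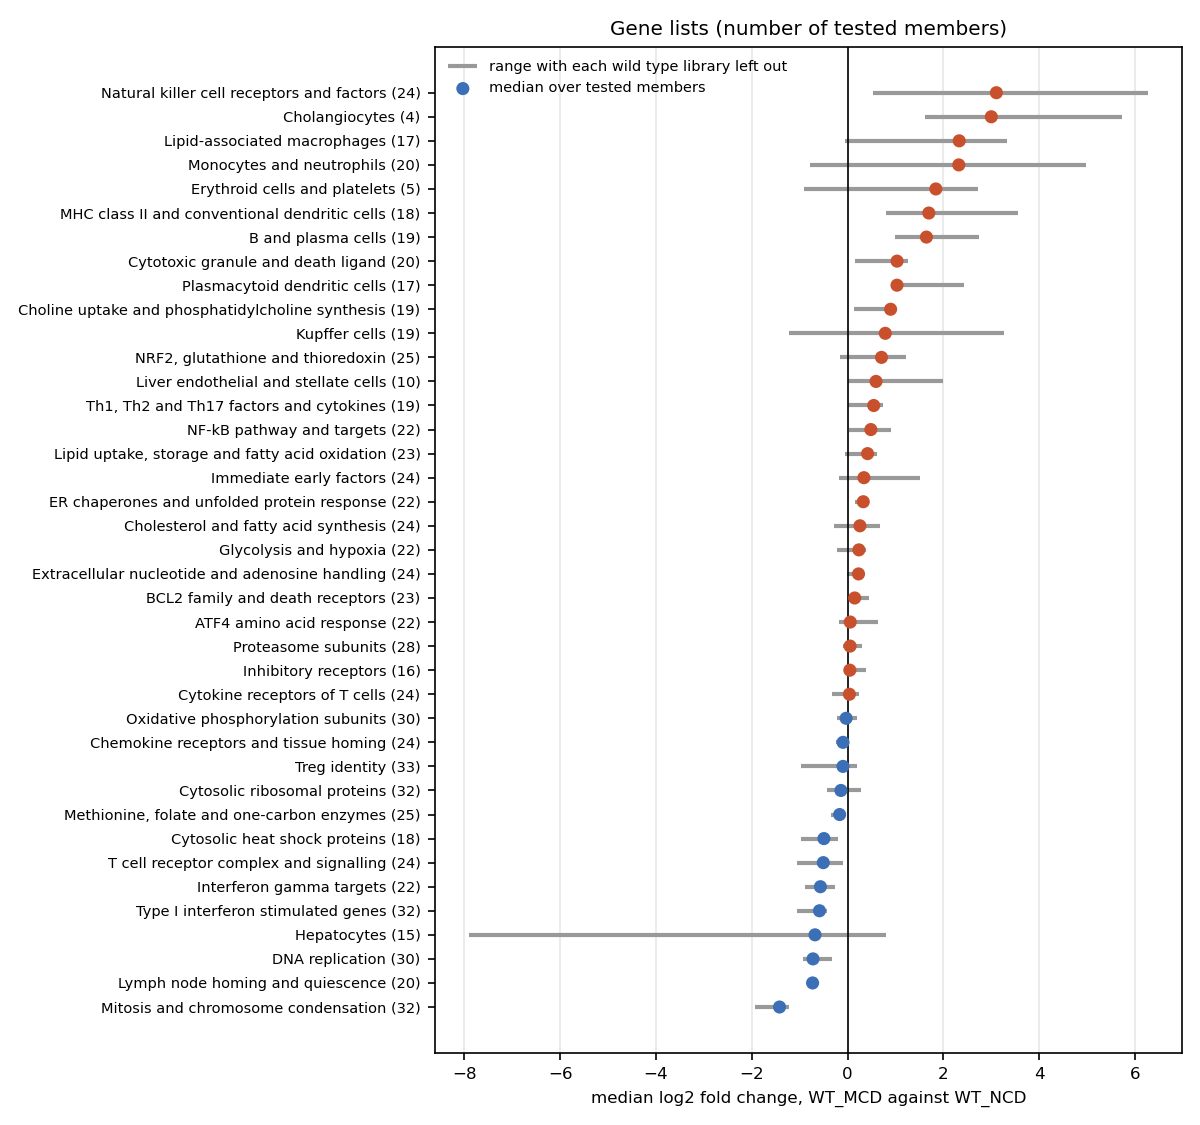
Median log2 fold change of the tested members of each of 39 gene lists (points; red above 0, blue below), with the range of that median when each of the 4 wild type libraries is left out in turn (grey bars). Mitosis, DNA replication and lymph node homing stay below 0 and the NK, plasmacytoid dendritic, dendritic and B cell lists stay above 0, while the macrophage and monocyte lists cross 0. Other lists keep their sign too, among them T cell receptor, heat shock and interferon below 0 and cytotoxic and choline above 0. The plasmacytoid dendritic and choline points lie outside their own bars.

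Genes of cell division were lower on the deficient diet, in both WT_MCD libraries. Of the 32 mitosis and chromosome condensation genes tested, 32 had a negative and 0 a positive log2 fold change, with a median of -1.42 against 0.04 over all genes. In 29 of them both WT_MCD libraries stood below both WT_NCD libraries (background 14.8%), 13 had an unadjusted p under 0.05 (background 2.04%) and DESeq2 called 6 (background 0.338%). The median stayed between -1.93 and -1.23 with each wild type library left out, and was -1.47 with the Kupffer list as a covariate. Such a span of the medians over the 4 fits that each leave out 1 wild type library is called the leave-out range here. The mean log2 CPM of the list was 6.54 and 6.95 against 4.99 and 5.53, lowest in WT_MCD replicate 1.

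At the entry into mitosis, Aurka, the kinase that matures spindle poles, had 109.5 and 156 against 24.3 and 53.4 CPM (log2 fold change -1.77, SE 0.48), and Tpx2, its activator on microtubules, had 185 and 206 against 37.4 and 57.8 CPM (log2 fold change -2.04, SE 0.68). Ccnb1, the cyclin of the mitotic kinase, had 46.2 and 92.8 against 8.51 and 33.97 CPM. All 3 stood lower in each WT_MCD library. Of the spindle checkpoint kinases, Bub1 had 61.5 and 70.4 against 9.99 and 15.6 CPM (log2 fold change -2.37, SE 0.57) and Bub1b had 68.3 and 68.97 against 17.9 and 34.7 CPM (log2 fold change -1.38, SE 0.48). Nusap1, which bundles spindle microtubules, had 212 and 244 against 25.9 and 66.6 CPM (log2 fold change -2.301, SE 0.53) and was the single gene lower on the deficient diet that edgeR called when no filter on low counts was used. Kif20a, a kinesin needed for cytokinesis, had 114 and 142 against 13.6 and 38.9 CPM (log2 fold change -2.29, SE 0.65).

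Survivin and the anaphase ubiquitin ligase followed the same order of libraries. Birc5, which encodes survivin of the chromosomal passenger complex, had 215 and 286 against 47.6 and 99.1 CPM (log2 fold change -1.77, SE 0.63). Ube2c, the ubiquitin-conjugating enzyme of that ligase, had 69.8 and 104 against 15.1 and 31.6 CPM (log2 fold change -1.897, SE 0.73). The proliferation antigen Mki67 had 187 and 106 against 82.8 and 24.9 CPM. Of the condensin subunits, which compact chromosomes, Ncapg had 49.98 and 87.01 against 7.95 and 20.003 CPM (log2 fold change -2.29, SE 0.71), Ncapd2 had 77.9 and 141 against 49.1 and 45.9 CPM (log2 fold change -1.204, SE 0.40) and Smc2 had 189 and 228 against 99.5 and 56.4 CPM (log2 fold change -1.42, SE 0.55). WT_MCD replicate 1 was the lowest of the 4 libraries for most of these genes, though not for Top2a, Hmgb2, Mki67, Smc2 or Ncapd2, where replicate 2 was lowest. The 3 members whose libraries overlapped between the diets were Ccnb2 (8.499 and 9.11 against 1.91 and 11.8 CPM) and the 2 abundant, broadly expressed genes H2afz (537 and 868 against 747 and 589.7 CPM) and Tubb5 (1164 and 1808 against 1337 and 1609 CPM).

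The promoters of mitotic genes are known to carry 2 short elements, CCAAT boxes and the cell cycle genes homology region (CHR). The 250 bases before the start site were searched on both strands for both. The letters of the first were CCAAT. The second was searched in one form, TTTGAA, and in another form, TTTAAA, which reads the same on both strands. None of the elements printed here overlaps another. Sequences were taken from RefSeq (GRCm38.p6), which matched 25 of the 32 mitosis genes in 26 windows. A CCAAT box was found in 88.5% of these windows, against 33.9% of all 32851 windows of that length, and a CHR element in 65.4% against 25.2%. Both were found in 61.5% against 8.78%. The E2F site of replication genes, searched as TTTCGCGC, TTTGGCGC or TTTCCCGC and their reverse complements, was found in 7.69% against 1.53%. A match is a description of these letters only. Of the 13 members with an unadjusted p under 0.05, 6 had both elements, and 4 of these 6 are printed below, 5′ to 3′ on the strand of the gene and ending at the base before the start site, with CCAAT boxes and CHR elements in capitals on either strand.
Hmgb2 (chr8:57511593-57511842, plus strand): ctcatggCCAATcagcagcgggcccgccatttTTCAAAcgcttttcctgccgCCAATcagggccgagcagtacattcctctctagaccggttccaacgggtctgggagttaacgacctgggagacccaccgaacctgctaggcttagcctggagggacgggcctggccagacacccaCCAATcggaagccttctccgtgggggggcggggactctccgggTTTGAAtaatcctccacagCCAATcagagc
Top2a (chr11:99024190-99024439, minus strand): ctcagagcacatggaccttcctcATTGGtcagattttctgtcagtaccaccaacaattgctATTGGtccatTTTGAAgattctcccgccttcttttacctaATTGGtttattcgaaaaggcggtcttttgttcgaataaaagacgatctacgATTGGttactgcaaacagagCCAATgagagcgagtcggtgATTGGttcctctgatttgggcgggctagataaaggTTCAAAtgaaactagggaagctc
Ncapg (chr5:45669675-45669924, plus strand): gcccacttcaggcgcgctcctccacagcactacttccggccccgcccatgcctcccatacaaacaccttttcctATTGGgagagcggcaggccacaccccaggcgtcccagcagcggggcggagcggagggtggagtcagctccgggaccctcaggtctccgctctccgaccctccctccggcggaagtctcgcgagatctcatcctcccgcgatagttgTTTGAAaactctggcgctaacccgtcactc
Ncapd2 (chr6:125191587-125191836, minus strand): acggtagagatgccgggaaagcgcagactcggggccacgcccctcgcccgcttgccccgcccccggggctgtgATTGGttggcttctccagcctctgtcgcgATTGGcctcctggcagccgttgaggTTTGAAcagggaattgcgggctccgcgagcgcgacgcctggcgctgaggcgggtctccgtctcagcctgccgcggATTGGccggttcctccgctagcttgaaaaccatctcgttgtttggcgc
The 2 genes with the smallest p of the list, Hmgb2 and Top2a, had 4 and 6 CCAAT boxes in these 250 bases, and each had 2 CHR elements. Ncapg had 1 CCAAT box and Ncapd2 had 3, each with 1 CHR element.

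DNA replication genes were lower too, with more overlap between libraries. Of 30 tested, 26 were lower and 4 higher, with a median of -0.72, and the libraries stood apart on the lower side in 15 and on the higher side in 0. An unadjusted p under 0.05 was reached by 3, all lower. The median stayed between -0.93 and -0.32 with each wild type library left out. Mcm4, a subunit of the replicative helicase, had 113 and 143 against 64.01 and 62.6 CPM (log2 fold change -1.02, SE 0.29). Its partners Mcm3 and Mcm5 had 208 and 392 against 162 and 167 CPM (Mcm3) and 96.9 and 235 against 89.5 and 96.03 CPM (Mcm5), and Mcm6 had 312 and 521 against 373 and 294 CPM. In this helicase the WT_NCD replicate 2 library was the highest for each subunit named, and Mcm6 overlapped between the diets. Pole, the leading strand polymerase, had 29.2 and 23.1 against 6.32 and 8.87 CPM (log2 fold change -1.78, SE 0.70). RefSeq matched 24 of these genes in 30 promoter windows, and the CCAAT box was found in 56.7% of them against 33.9% of all windows. A CHR element was found in 23.3% against 25.2%, both elements in 13.3% against 8.78%, and an E2F site in 23.3% against 1.53%.

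**Figure D3:**
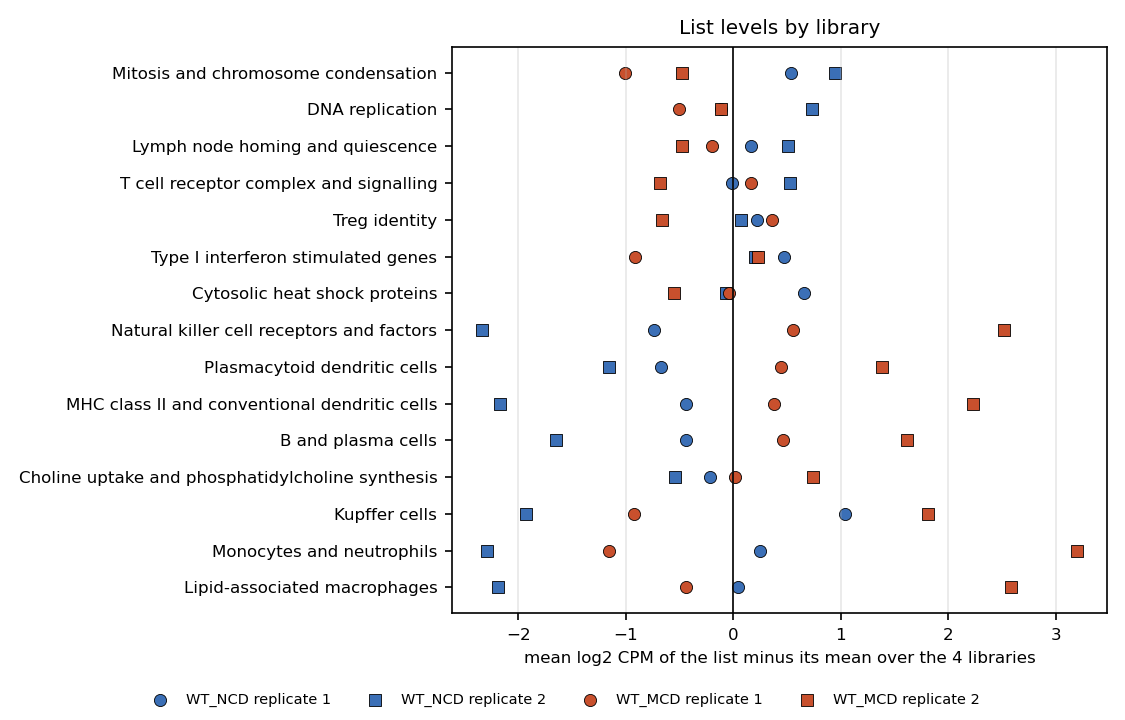
Mean log2 CPM of the tested members of 15 gene lists in each wild type library, minus the mean over the 4 libraries; circles and squares are replicates 1 and 2, blue WT_NCD and red WT_MCD. The 2 diets separate for mitosis, lymph node homing, choline and the NK, plasmacytoid and conventional dendritic and B cell lists. They overlap for the T cell receptor, Treg identity, type I interferon and heat shock lists. For DNA replication the point of WT_NCD replicate 1 lies under that of WT_MCD replicate 2. The 3 macrophage and monocyte lists follow single libraries of either diet.

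Genes of lymph node homing and quiescence were lower in both WT_MCD libraries. Of 20 tested, 18 were lower, the median was -0.73, 13 stood apart on the lower side and 10 had an unadjusted p under 0.05. The median moved only between -0.82 and -0.63 over the 4 left-out libraries. Besides Ccr7, S1pr1, the receptor for exit from lymphoid tissue, had 899.98 and 1052 against 566 and 409 CPM (log2 fold change -1.002, SE 0.30). Klf2, the factor that drives S1pr1, had 158 and 125 against 81.2 and 69.5 CPM (log2 fold change -0.91, SE 0.30). The transcription factors Lef1 and Tcf7 had 278 and 493 against 158 and 173 CPM (Lef1) and 173 and 419.6 against 153 and 108 CPM (Tcf7). Foxp1, which holds T cells in quiescence, had 209 and 267 against 143 and 111 CPM (log2 fold change -0.91, SE 0.30). Dgka, a lipid kinase that damps T cell receptor signals, had 276 and 364 against 162 and 123 CPM (log2 fold change -1.17, SE 0.34), and Tsc22d3, the glucocorticoid-induced leucine zipper, had 1803 and 2102 against 1187 and 1172 CPM (log2 fold change -0.73, SE 0.25). Bach2, a repressor of effector genes, had 16.998 and 14.6 against 2.51 and 3.99 CPM and stood lower in both WT_MCD libraries. The gut homing integrin Itgb7 overlapped, with 2213 and 3593 against 2248 and 1855 CPM. The receptor Il7r overlapped as well, with 679 and 567 against 1122 and 394 CPM.

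The T cell receptor complex was lower mainly in WT_MCD replicate 2. Of 24 tested genes 21 were lower, with a median of -0.51, 9 apart on the lower side and 3 with an unadjusted p under 0.05. With WT_MCD replicate 1 left out the median was -1.05, and it was -0.09 when replicate 2, the library with the most macrophage RNA, was left out instead. Its part in this result was not tested. The receptor beta chain constant genes Trbc1 and Trbc2 had 611 and 1044 against 484 and 322 CPM (Trbc1) and 1484 and 2194 against 1026 and 709.5 CPM (Trbc2). These 2 genes are near-identical copies, so reads may be split between them. Trac, the alpha chain constant gene, had 2622 and 3692 against 3514 and 1521 CPM, and the adhesion receptor Cd2 had 2354 and 2908 against 2486 and 1172 CPM. Skap1, an adaptor for integrin activation, had 175 and 205 against 113 and 102 CPM (log2 fold change -0.83, SE 0.29). Cd3d, Cd3g and Cd247 stood apart with lower values, while Trac and Cd2 overlapped.

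Treg identity genes did not move in 1 direction. Of 33 tested, 12 were higher and 21 lower, with a median of -0.10, 3 apart on the higher and 7 on the lower side. An unadjusted p under 0.05 was reached by 3, all lower. The median turned from -0.97 with WT_MCD replicate 1 left out to 0.19 with replicate 2 left out. Foxp3 was lower in both WT_MCD libraries (log2 fold change -0.91, SE 0.34). Gpr83, a neuropeptide receptor of Treg, had 37.7 and 139 against 13.4 and 16.6 CPM (log2 fold change -2.56, SE 0.76) and was called by DESeq2. Nrp1, the receptor neuropilin 1, had 385 and 503 against 251 and 225 CPM (log2 fold change -0.90, SE 0.31). The checkpoint receptors Ctla4 and Tigit had 160.2 and 85.7 against 107 and 48.9 CPM (Ctla4) and 692 and 670.03 against 696 and 239 CPM (Tigit), and both overlapped between the diets.

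Several activation receptors of tissue Treg were high in WT_MCD replicate 1 alone. Ccr8, the receptor of tissue and tumour Treg, had 688 and 398 against 1899 and 389 CPM. Il2ra and Tnfrsf9, the costimulatory receptor 4-1BB, were also highest in WT_MCD replicate 1, the latter with 142 and 242 against 464 and 244 CPM. For Tnfrsf9, WT_MCD replicate 2 lay barely above WT_NCD replicate 2. Pdcd1, which encodes PD-1, had 166 and 193 against 560.4 and 121 CPM. In each of them WT_MCD replicate 2 lay near the WT_NCD libraries or below. Areg, the repair factor amphiregulin, and Il10 followed replicate 1 of both diets, with 138 and 16.1 against 177 and 33.9 CPM (Areg) and 237 and 86.8 against 183 and 41.3 CPM (Il10). The actin-capping gene Capg was even, with 1387 and 1737 against 1781 and 1434 CPM. Over the 16 inhibitory receptors 8 were higher and 8 lower (median 0.05, leave-out range 0.04 to 0.38).

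NK cell receptor genes were higher on the deficient diet, from levels at or near 0 in WT_NCD. Of 24 tested, 22 had a positive log2 fold change and 8 had no count in WT_NCD. The median was 3.105, or 2.94 with the uncounted genes at their lower bound. The libraries stood apart on the higher side in 11 (background 16.8%), 9 had an unadjusted p under 0.05 and a positive fold (background 3.96%) and DESeq2 called 7 (background 1.74%). The median ranged from 0.54 without WT_MCD replicate 2 to 6.27 without WT_NCD replicate 1.

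Klrk1, the activating receptor NKG2D, had 24.4 and 5.71 against 116 and 202 CPM (log2 fold change 3.402, SE 0.68), and Klrb1c, the NK1.1 antigen of C57BL/6 mice, had 12.8 and 3.78 against 49.6 and 53.03 CPM (log2 fold change 2.63, SE 0.67). Klrc1, the inhibitory chain NKG2A, had 5.67 and 0.387 against 22.9 and 30.2 CPM (log2 fold change 3.13, SE 1.07). With Ncr1, Klre1 and Klrd1 these receptors were high in both WT_MCD libraries. The Ly49 receptor genes, which are near-identical copies that can share reads, were mostly uncounted in WT_NCD: Klra1 had no count against 7.95 and 3.57 CPM and Klra9 had no count against 1.49 and 9.66 CPM. Other genes of the list did not follow the receptors. Eomes, the factor that marks conventional NK cells, had no count against 0 and 1.47 CPM, and Tbx21, its relative T-bet, had 11.1 and 31.9 against 26.3 and 40.5 CPM. The adaptors Tyrobp and Fcer1g, which macrophages also express, had 9.16 and 0.515 against 5.16 and 86.6 CPM (Tyrobp) and 99.3 and 6.91 against 51.7 and 543 CPM (Fcer1g) and were high in the 2 libraries rich in Lyz2. Il2rb, the beta chain of the IL-2 receptor, overlapped with 644 and 1327 against 997 and 668 CPM, and Txk, a kinase of the Tec family, stood lower with 102 and 66.9 against 51.9 and 34.1 CPM (log2 fold change -0.98, SE 0.40).

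Cytotoxic genes were higher more often than lower. Of 20 tested, 13 were higher, the median was 1.03, 8 stood apart on the higher side and 6 had an unadjusted p under 0.05. Leaving out WT_MCD replicate 2 brought the median to 0.15. Nkg7, a granule membrane protein, had 48.7 and 64.6 against 115 and 153 CPM (log2 fold change 1.24, SE 0.35), Ctsw, a cathepsin of cytotoxic cells, had 14.8 and 45.1 against 62.1 and 81.1 CPM (log2 fold change 1.26, SE 0.51), and Serpinb9, which protects a cell from its own granzyme B, had 65.4 and 76.02 against 206 and 144 CPM (log2 fold change 1.31, SE 0.33). Prf1, the pore-former perforin, had 23.02 and 24.9 against 35.4 and 71.2 CPM. These 4 stood higher in both WT_MCD libraries. Gzmb, granzyme B itself, did not separate the diets, with 619 and 236 against 530.5 and 236 CPM, and the granule proteoglycan Srgn was lower with 1253 and 1062 against 757 and 947 CPM. The chemokine Ccl3 was highest in WT_NCD replicate 1, with 669 and 8.63 against 127 and 339.8 CPM.

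Chemokine and cytokine receptors held single genes that separated the diets. Of 24 chemokine receptor and homing genes 9 were higher and 15 lower (median -0.09, leave-out range -0.25 to 0.04). Cxcr6, which holds lymphocytes in the liver sinusoids, had 37.3 and 23.9 against 209 and 62.9 CPM (log2 fold change 2.15, SE 0.62) and was called by DESeq2. Cxcr5, the receptor for B cell follicles, had 92.6 and 124 against 49.8 and 42.5 CPM (log2 fold change -1.23, SE 0.42). Selplg, the selectin ligand PSGL-1, overlapped with 1162 and 1868 against 1213 and 1308 CPM. Among 24 cytokine receptors 12 were higher and 12 lower. Il18rap, a chain of the IL-18 receptor, had 27.3 and 38.5 against 93.3 and 92.4 CPM (log2 fold change 1.497, SE 0.51), while its partner Il18r1 overlapped with 66.2 and 55.2 against 71.03 and 41.4 CPM. Tgfbr2, a chain of the TGF-beta receptor, had 97.7 and 112 against 162 and 200.4 CPM (log2 fold change 0.79, SE 0.29), and Ifngr2, a chain of the interferon gamma receptor, had 42.2 and 31.2 against 54.4 and 149 CPM (log2 fold change 1.47, SE 0.52). Il2rg and Ifngr1 overlapped, with 617 and 893 against 886 and 614 CPM (Il2rg) and 4129.5 and 2666 against 3886 and 2661 CPM (Ifngr1).

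Helper T cell genes were higher in 16 of 19 cases (median 0.54), 6 of them apart. The Th17 genes named here were high in WT_MCD replicate 1. Il17f had no count against 44.5 and 0.525 CPM, Il17a had 0 and 0.859 against 22.5 and 3.89 CPM and Il23r, a chain of the IL-23 receptor, had 10.2 and 4.12 against 39.05 and 12.5 CPM. WT_MCD replicate 2 lay far below replicate 1 for all 3. Hlx, a factor of Th1 and innate lymphoid cells, had no count against 3.86 and 10.9 CPM (at least 103-fold higher). Stat3, which transmits IL-6 and IL-23 signals, had 408 and 459.6 against 618 and 648 CPM. Gata3, the Th2 factor that tissue Treg also express, overlapped with 380.02 and 480.2 against 736 and 319 CPM, and Stat6 had 558 and 725 against 674 and 652 CPM. Without WT_MCD replicate 1 the median was 0.01.

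Plasmacytoid dendritic cell genes were higher on average in both WT_MCD libraries, with a mean log2 CPM of 3.41 and 2.93 against 4.53 and 5.47. WT_MCD replicate 1 stood above WT_NCD replicate 1, unlike in the Kupffer cell list. Within each diet the library richer in macrophage RNA had the higher mean. Of 17 tested, 16 were higher, the median was 1.03, 9 stood apart on the higher side, 8 had an unadjusted p under 0.05 and DESeq2 called 5. The median was 1.12 without WT_MCD replicate 2 and 2.44 without WT_NCD replicate 1. Siglech (ENSMUSG00000051504, chromosome 7, 55768178 to 55778925, GRCm38), the lectin that marks these cells in mice, had 20.4 and 14.7 against 122 and 129 CPM (log2 fold change 2.84, SE 0.71). Tcf4, the factor that specifies them, had 18.1 and 7.0005 against 71.3 and 69.7 CPM (log2 fold change 2.49, SE 0.56), and Spib, which works with it, had 0 and 3.18 against 18.9 and 45.9 CPM (log2 fold change 4.33, SE 1.41). For Siglech and Tcf4 the 2 WT_MCD libraries lay close to each other. Irf8, shared with other dendritic cells and macrophages, had 92.1 and 20.9 against 278 and 674 CPM (log2 fold change 3.07, SE 0.74). Klk1, a kallikrein transcribed in these cells, had 5.16 and 1.07 against 26.8 and 41.6 CPM (log2 fold change 3.46, SE 1.33), and Cox6a2 had 0.455 and 0.172 against 2.05 and 5.88 CPM. Bst2, an antiviral membrane protein and the only lower member, had 182 and 136 against 113 and 112 CPM. CD4 is carried by mouse plasmacytoid dendritic cells; whether they entered the gate was not tested.

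Conventional dendritic and B cell genes were higher as well, most of all in WT_MCD replicate 2. All 18 tested genes of MHC class II and conventional dendritic cells had a positive log2 fold change (median 1.695, 0.81 without WT_MCD replicate 2 and 3.56 without WT_NCD replicate 1), with 11 apart. Clec9a, the dead cell receptor of cross-presenting dendritic cells, had no count against 6.93 and 10.3 CPM, and the dendritic cell factor Zbtb46 had 0.86001 and 2.79 against 13.4 and 11.9 CPM. Fscn1, the actin bundler of mature dendritic cells, had no count against 1.91 and 15.1 CPM, and their chemokine Ccl22, which attracts Treg through CCR4, had no count against 17.7 and 83.1 CPM (at least 695-fold higher). The MHC class II gene H2-Ab1 and its invariant chain Cd74 followed the macrophage level instead, with 3991 and 258 against 877 and 4969 CPM (H2-Ab1) and 2324 and 199 against 819 and 2959 CPM (Cd74). So did H2-Eb1, with 2066 and 114 against 373 and 2419.7 CPM. Itgax, the integrin CD11c, had 9.61 and 2.58 against 15.4 and 133 CPM.

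Of 19 B and plasma cell genes 17 were higher (median 1.64), 10 apart. The median was 0.98 without WT_MCD replicate 2 and 2.75 without WT_NCD replicate 1. Cd79a, the signalling chain of the B cell receptor, had 14.5 and 10.6 against 37.2 and 72.6 CPM (log2 fold change 2.13, SE 0.60), and Mzb1, a chaperone of antibody secretion, had 0.961 and 0.816 against 8.88 and 15.5 CPM (log2 fold change 3.77, SE 0.76). Cr2, the complement receptor of mature B cells, had no count against 1.07 and 3.36 CPM. The antibody genes did not share this pattern. Ighm, the IgM heavy chain, had 1943 and 2663 against 1680.4 and 977 CPM, Igkc, the kappa light chain, had 969.8 and 78.2 against 459.6 and 591 CPM, and Cd79b had 78.6 and 78.9 against 55.7 and 83.5 CPM. All 3 overlapped or were lower in WT_MCD.

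Macrophage, monocyte and neutrophil genes varied by library rather than by diet. Kupffer cell genes had a median of 0.79 that became -1.22 without WT_MCD replicate 2, and monocyte and neutrophil genes went from 2.32 to -0.78. The complement genes C1qa and C1qb had 587 and 49.4 against 76.1 and 869 CPM (C1qa) and 752 and 64.1 against 107 and 1072 CPM (C1qb), with WT_NCD replicate 1 near WT_MCD replicate 2. A few genes of these cells stood higher in both WT_MCD libraries all the same. Marco, a scavenger receptor, had 12.1 and 1.76 against 25.2 and 72.98 CPM. Ly6c2, the surface antigen of inflammatory monocytes that memory T cells also carry, had 26.9 and 16.02 against 59.3 and 276 CPM (log2 fold change 2.97, SE 0.73), and Mmp9, a gelatinase, had 21.1 and 35.1 against 67.6 and 125 CPM (log2 fold change 1.78, SE 0.50). The neutrophil granule genes Ngp and Mpo were counted in WT_MCD replicate 2 only: Ngp had no count against 0 and 34.8 CPM and Mpo had no count against 0 and 34.1 CPM.

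Genes of the lipid-associated macrophages described in fatty liver were higher in 17 of 17 cases (median 2.33), but the median was -0.06 without WT_MCD replicate 2. Gpnmb, a glycoprotein of lipid-laden macrophages, had 122 and 17.3 against 186 and 7102 CPM, Spp1, osteopontin, had 100.2 and 0.687 against 126 and 1694 CPM, and Lpl, lipoprotein lipase, had 32.3 and 4.72 against 80.3 and 897 CPM. For these 3 both WT_MCD libraries stood above both WT_NCD libraries. WT_MCD replicate 1 held less Lyz2 than WT_NCD replicate 1, and the part of macrophage RNA in these 3 genes was not tested. Apoe and Ctsb followed Lyz2, with 4246 and 164 against 515 and 6725 CPM (Apoe) and 2680.4 and 1419 against 1711 and 9395 CPM (Ctsb).

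Most hepatocyte genes were at low levels in every library. Of 15 hepatocyte genes 9 were lower. Albumin (Alb) had 3.79 and 1.85 against 2.37 and 28.3 CPM, and the acute phase gene Hp had 57.4 and 7.86 against 10.5 and 292 CPM. Mup3, a major urinary protein gene with near-identical copies, had 15.5 and 7.69 CPM against no count. Among the methionine enzymes that hepatocytes express, Bhmt, which uses a choline product to remake methionine, had 33.4 and 5.33 against 0 and 0.578 CPM, and Cth, which makes cysteine from cystathionine, had 6.22 and 2.88 CPM against no count. Epcam, an adhesion molecule of bile duct cells, had 3.69 and 5.197 against 16.7 and 14.8 CPM, and Pecam1, carried by endothelium and by some T cells, had 173 and 222 against 94.97 and 67.99 CPM (log2 fold change -1.28, SE 0.44).

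The nutrients missing from the diet point to the methionine cycle and to phosphatidylcholine synthesis. Methionine, folate and one-carbon genes did not shift together, with 9 of 25 higher and 16 lower (median -0.17, leave-out range -0.35 to -0.05, 3 apart on the higher and 7 on the lower side). Mat2a and Mat2b, the subunits of the enzyme that makes S-adenosylmethionine in lymphocytes, had 52.9 and 32.5 against 37.2 and 54.9 CPM (Mat2a) and 531 and 755 against 553 and 464 CPM (Mat2b), and both overlapped. Ahcy, which splits S-adenosylhomocysteine, had 35.1 and 40.2 against 17.01 and 22.3 CPM, and Mtr, methionine synthase, had 53.5 and 36.1 against 27.98 and 17.3 CPM. Both stood lower in each WT_MCD library, and neither had an unadjusted p under 0.05.

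Polyamine synthesis, which spends S-adenosylmethionine, differed in a single enzyme. Srm, spermidine synthase, had 15.1 and 14.6 against 31.1 and 53.3 CPM (log2 fold change 1.504, SE 0.44), while Sms and Amd1, the enzymes after and before it, overlapped with 32.2 and 58.3 against 50.5 and 38.2 CPM (Sms) and 115 and 112 against 131 and 94.7 CPM (Amd1). Odc1, which makes putrescine, followed the replicate number with 209 and 9.41 against 252 and 23.2 CPM. Oaz1, the antizyme that targets it for degradation, had 590.5 and 458 against 785 and 954 CPM (log2 fold change 0.73, SE 0.28). Adi1, in the salvage of methionine from this pathway, had 11.99 and 11.2 against 17.01 and 18.95 CPM.

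**Figure D4:**
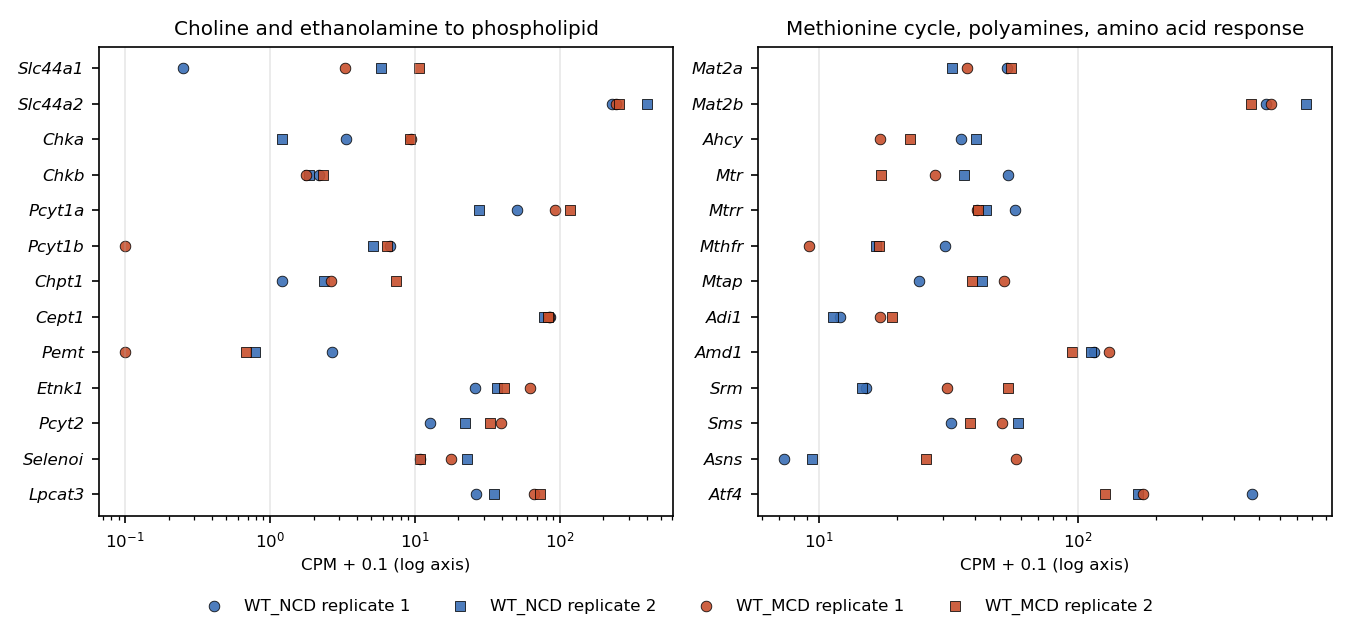
Level of choline and ethanolamine pathway genes (left) and of methionine cycle, polyamine and amino acid response genes (right) in CPM with 0.1 added on a log axis; circles and squares are replicates 1 and 2, blue WT_NCD and red WT_MCD. Chka, Pcyt1a, Pcyt2, Lpcat3, Srm and Asns stand higher in both WT_MCD libraries and Ahcy and Mtr lower, while Mat2a, Mat2b, Cept1 and Atf4 overlap.

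Choline genes were higher more often than lower, by 13 to 6 of 19 (median 0.90). The libraries stood apart on the higher side in 7, and 3 had an unadjusted p under 0.05. The median was 0.13 without WT_MCD replicate 2 and 0.29 without WT_NCD replicate 2. Chka, the choline kinase that starts the pathway, had 3.24 and 1.12 against 9.34 and 9.14 CPM. Pcyt1a (ENSMUSG00000005615, chromosome 16, 32430921 to 32475070, GRCm38), the rate-limiting enzyme, had 50.9 and 27.5 against 92.2 and 117 CPM (log2 fold change 1.42, SE 0.37). The last step, by Cept1, was even, with 85.5 and 78.04 against 84.2 and 82.5 CPM. On the ethanolamine branch Pcyt2 had 12.5 and 22.2 against 39.4 and 32.9 CPM (log2 fold change 1.06, SE 0.45). Lpcat3, which remodels phosphatidylcholine, had 26.5 and 35.3 against 66.8 and 72.8 CPM (log2 fold change 1.17, SE 0.49). The enzymes named here as higher were so in WT_MCD replicate 1 as well as in replicate 2. The choline transporter Slc44a2 overlapped with 228 and 401 against 245 and 258 CPM. Pemt, which makes phosphatidylcholine by methylation in liver, was near the floor with 2.58 and 0.687 against 0 and 0.578 CPM, and the macrophage enzyme Lpcat2 followed Lyz2 with 125 and 5.63 against 17.7 and 233 CPM.

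The ATF4 response, which reads amino acid shortage, was not shifted as a whole (12 higher, 10 lower, median 0.06, leave-out range -0.18 to 0.64). Asns, asparagine synthetase and a standard target of ATF4, had 7.23 and 9.28 against 57.2 and 25.8 CPM (log2 fold change 2.33, SE 0.77). Eif4ebp1, the translation inhibitor that is another target, had 26.7 and 23.9 against 51.2 and 113 CPM (log2 fold change 1.698, SE 0.47). Ddit4, an inhibitor of mTORC1, also stood apart on the higher side with 29.5 and 13.2 against 62.01 and 39.2 CPM. Most other higher members overlapped, among them the amino acid transporter chain Slc3a2 with 480.1 and 164 against 326 and 348 CPM. Of the 10 lower members, Atf4 itself had 469 and 170.1 against 178 and 127 CPM, the phosphatase subunit Ppp1r15a had 4203 and 875 against 1836 and 1077 CPM, and the serine synthesis enzymes Phgdh and Psat1 had 150 and 390.2 against 286 and 213 CPM (Phgdh) and 74.7 and 103 against 45.5 and 52.98 CPM (Psat1). Trib3, a pseudokinase of the same response, had 11.8 and 8.89 against 1.58 and 5.72 CPM.

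The medians of redox and lipid genes turned sign without WT_MCD replicate 2. NRF2 and glutathione genes were higher in 22 of 25 (median 0.71, -0.16 without that library), cholesterol and fatty acid synthesis genes in 15 of 24 (median 0.26, -0.29 without it) and genes of lipid uptake and oxidation in 13 of 23 (median 0.42, -0.06 without it). Gsr, glutathione reductase, had 67.3 and 40.7 against 126 and 586 CPM (log2 fold change 2.72, SE 0.75), and Gclm, a subunit of the first enzyme of glutathione synthesis, had 9.41 and 7.301 against 13.3 and 115 CPM. Prdx1 and Taldo1 were high in WT_MCD replicate 2 alone, with 619 and 793 against 511 and 1988 CPM (Prdx1) and 673 and 864 against 584 and 1782 CPM (Taldo1).

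Of the lipid enzymes, Scd1, the stearoyl-CoA desaturase, had 7.28 and 3.01 against 18.5 and 36.1 CPM (log2 fold change 2.41, SE 0.74), and Sqle, squalene epoxidase, had 20.1 and 17.7 against 34.1 and 134 CPM (log2 fold change 2.16, SE 0.62). Acsl1, which activates fatty acids for oxidation, had 5.01 and 7.73 against 28.3 and 64.7 CPM (log2 fold change 2.87, SE 0.64). These stood higher in both WT_MCD libraries, with replicate 2 the highest. Acly, the source of cytosolic acetyl-CoA, overlapped with 461 and 853 against 594 and 554 CPM. Dgat1, which makes triglyceride, followed the replicate number with 370.1 and 33.2 against 309.5 and 37.1 CPM, and the lipid droplet protein Plin2 followed Lyz2 with 255 and 73.9 against 131 and 572 CPM. In glycolysis 13 of 22 genes were higher. The median of 0.24 turned to -0.22 without WT_MCD replicate 1, was 0.10 without WT_NCD replicate 1 and was 0.39 without WT_MCD replicate 2. Aldoa, aldolase A, had 279.96 and 321 against 508 and 564 CPM (log2 fold change 0.83, SE 0.27). Slc16a3, the lactate exporter MCT4, had 63.9 and 66.3 against 118 and 302 CPM (log2 fold change 1.69, SE 0.44). Ldha and Pkm, the abundant enzymes at the end of the pathway, had 1040.1 and 1677 against 1092 and 1081 CPM (Ldha) and 1693 and 2185 against 2529 and 2375 CPM (Pkm).

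Oxidative phosphorylation, ribosomal protein and proteasome genes lay near the median of all genes, at -0.03, -0.14 and 0.05 over 30, 32 and 28 genes. Their leave-out ranges all crossed 0, at -0.23 to 0.20, -0.43 to 0.28 and -0.10 to 0.30. Atp5b, the catalytic subunit of ATP synthase, had 1113 and 2050.2 against 1227 and 1366 CPM, and the ribosomal protein gene Rpl4 had 1922 and 3855 against 2134 and 1902 CPM. In both genes WT_NCD replicate 2 was the highest library and the other 3 were close to each other. Psmd2, a subunit of the proteasome cap, had 314 and 444 against 558 and 572 CPM and stood apart. Psmb9, the immunoproteasome subunit induced by interferon gamma, had 148 and 199 against 91.4 and 144 CPM.

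Cytosolic heat shock genes were lower in 15 of 18 cases (median -0.49; -0.96 to -0.20 with each wild type library left out), 8 of them apart. Hspa1a, the inducible HSP70, had 1902 and 578 against 482 and 157 CPM (log2 fold change -1.96, SE 0.69); its copy Hspa1b can share its reads. Hspb1, a small heat shock protein, had 71.6 and 6.57 against 5.53 and 2.47 CPM. The constitutive Hspa8 had 3339.6 and 2907 against 2503 and 1748 CPM, and Hsp90aa1 had 2203 and 1343 against 1187 and 649 CPM. Each of these 4 was lower in both WT_MCD libraries, with replicate 2 the lowest. Endoplasmic reticulum genes went the other way in 16 of 22 cases (median 0.33, leave-out range 0.16 to 0.35). Ern1, the stress sensor IRE1-alpha, had 8.499 and 7.34 against 21.7 and 30.6 CPM (log2 fold change 1.72, SE 0.48), and Xbp1, the messenger it splices, had 264 and 179.9 against 314 and 365 CPM. Hspa5, the chaperone BiP, overlapped with 3751 and 1018 against 1929.5 and 1407 CPM.

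Interferon genes were lower in most cases. Of 32 type I interferon genes 25 were lower (median -0.59), 15 apart on the lower side, and of 22 interferon gamma targets 18 were lower (median -0.57), 6 apart. The mean log2 CPM of the type I genes was 5.84 and 5.57 against 4.46 and 5.60. In this mean WT_MCD replicate 1 was lowest and WT_MCD replicate 2 lay just above WT_NCD replicate 2. The leave-out range of the first median was -1.05 to -0.44, its lowest value without WT_MCD replicate 2. That of the second was -0.89 to -0.26, from the fits without WT_MCD replicate 1 and without WT_NCD replicate 2. In the IFI200 family, whose genes are similar in sequence and can share reads, Ifi213 had 249.96 and 317 against 139 and 97.03 CPM, Ifi208 had 225 and 521 against 159 and 174 CPM and Ifi203 had 358 and 419.8 against 255 and 189 CPM. Ifi204 of the same family, which macrophages express, had 88.3 and 7.39 against 14.1 and 130.1 CPM and followed Lyz2. Zbp1, a sensor of left-handed nucleic acid, had 269 and 293 against 134 and 153 CPM (log2 fold change -0.97, SE 0.26), and Irf9, the DNA-binding part of the interferon-activated complex, had 341 and 403 against 224 and 239.7 CPM (log2 fold change -0.68, SE 0.28). Ifi27l2a, a mitochondrial protein of the response, had 54.3 and 89.4 against 18.3 and 35.9 CPM (log2 fold change -1.41, SE 0.49). The guanylate-binding protein Gbp4 had 488 and 524 against 319.96 and 148 CPM (log2 fold change -1.11, SE 0.40), while Gbp7 and Igtp overlapped or nearly so, with 632 and 906 against 697 and 356 CPM (Gbp7) and 516 and 978 against 492 and 321 CPM (Igtp). The classical targets Isg15 and Ifit1 did not separate the diets, with 4.76 and 3.65 against 2.88 and 5.99 CPM (Isg15) and 79.9 and 91.7 against 53.8 and 85.7 CPM (Ifit1).

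NF-kB genes were higher in 14 of 22 cases (median 0.49) and immediate early genes in 19 of 24 (median 0.34). Without WT_NCD replicate 2 the medians were 0.03 and -0.18, and without WT_NCD replicate 1 they were 0.91 and 1.501. Many were lowest in WT_NCD replicate 2. Nfkbia, the inhibitor that NF-kB induces, had 1868 and 284 against 1865 and 1663 CPM, and Fos had 4566 and 1959 against 2546 and 5673 CPM. Tnfrsf1b, which encodes TNFR2, a receptor through which TNF expands Treg, had 281 and 312 against 485 and 624 CPM (log2 fold change 0.90, SE 0.28) and stood apart. Junb also stood apart, with 2384 and 1161 against 2888 and 3949 CPM, and Klf6 was lower with 5761 and 2989.6 against 3005 and 1887 CPM, its libraries barely overlapping. Dusp1, a phosphatase of MAP kinases, had 4547 and 1847 against 3408 and 4396 CPM.

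Genes that handle extracellular nucleotides and adenosine, the pathway of CD73, were higher in 14 and lower in 10 of 24 cases (median 0.23). The median was -0.02 without WT_NCD replicate 2, 0.01 without WT_MCD replicate 2 and 0.03 with the Kupffer list as a covariate. Upstream of CD73, Entpd1, which encodes the ATP-splitting CD39, overlapped with 236 and 157 against 128 and 239 CPM, and Entpd5, a related enzyme of the endoplasmic reticulum, had 116 and 149 against 58.2 and 68.99 CPM (log2 fold change -1.06, SE 0.34). The ATP-gated channel P2rx7 had 99.7 and 119.7 against 26.6 and 71.1 CPM (log2 fold change -1.17, SE 0.48), and Art2b, the ADP-ribosyltransferase that opens it, had 54.6 and 233 against 33.1 and 20.003 CPM (log2 fold change -2.44, SE 0.81). With Nt5e and Adk these 3 genes stood lower in both WT_MCD libraries. Among the adenosine receptors, Adora2a, the main one of T cells, overlapped with 215 and 138 against 203 and 115 CPM. Adora2b had no count against 3.44 and 25.1 CPM (at least 195-fold higher), highest in the library richest in macrophage RNA. Cd38, an NAD-splitting enzyme, had 144 and 149 against 165 and 201 CPM, and the transporter Slc29a3 had 26.8 and 36.5 against 51.7 and 121 CPM (log2 fold change 1.45, SE 0.53).

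Cell death genes were mixed, with 13 of 23 higher (median 0.15, leave-out range 0.06 to 0.44). Besides Fasl, the initiator caspase Casp9 had 5.11 and 18.1 against 35.004 and 65.1 CPM (log2 fold change 2.11, SE 0.71), and Bax, which permeabilises mitochondria, had 67.6 and 41.8 against 99.99 and 118 CPM (log2 fold change 0.99, SE 0.35). Bcl2a1d, a survival gene with near-identical copies, had 58.5 and 27.8 against 75.9 and 109.8 CPM. Casp8, the caspase of death receptors, was lower or equal with 298 and 590.4 against 298 and 216 CPM, and Pmaip1, a killer of the BH3-only group, overlapped with 1350.5 and 203 against 686 and 496 CPM.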

How the data were processed

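The comparison uses the 4 wild type RNA-seq libraries of the 7 made from sorted CD4+CD25+ liver cells. The table the authors deposited holds raw counts for 53465 Ensembl gene IDs in each library. The submitters' processing notes name HISAT2 2.1.0 and the build GRCm38. No source used here names the counter, its annotation, its strand setting or the kit. The labels gave each library's group and replicate number, and column names equal sample titles.

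The test was edgeR's quasi-likelihood F test (version 4.0.16, R 4.3.3) on TMM-scaled counts, fitted to all 7 libraries with a coefficient for each group (4 residual degrees of freedom). Genes had to pass filterByExpr at a minimum of 10 counts, and the threshold was an adjusted p of 0.05 (Benjamini-Hochberg). Of 21106 IDs with a count, 14784 were tested. SE is the log2 fold change divided by the square root of F. The prior count was 0.125 for log2 fold changes and 2 for log2 CPM. Where a diet had no count, the other diet's pooled CPM was set against 3 counts in both libraries together, a bound on counting error alone. Libraries of a group differed beyond sampling noise in every pair (88.7 to 320 chi-square units for each degree of freedom).

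Earlier results of these data were known when the 39 gene lists, the naming rule and the tests were chosen. The rule named Nt5e, Cd3e, Cd4, Il2ra and Foxp3, the 12 genes of smallest p per direction that are protein coding with a symbol, average at least 5 CPM over the 4 libraries and have a gap between diets on the log2 CPM scale wider than the range within either, and in each list the 3 of highest mean level per kb of exon and the 2 of smallest p. Not every gene it named is described, and other members were named after their values were seen. GENCODE M21 (GRCm38) gave names and coordinates for 53360 IDs and lacks 105. Of the genes named in the text some share exon sequence with another gene, 26 on the same and 40 on the opposite strand, among them Foxp3, Pcyt1a, Nusap1, Kif20a, Top2a, Fpr2 and Sort1. Their reads cannot be told apart from those of the other gene without the strand setting.

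On simulated counts with the dispersions of these libraries (13844 genes, 50 changed at each size), edgeR made 1 false call and found 0% of the 2-fold, 2% of the 4-fold, 44% of the 16-fold and 66% of the 64-fold changes. The changed genes were drawn from those above a limit on the mean count, and no other gene differed between the groups. Alternatives were other scalings and filters, DESeq2 1.42.0, limma 3.58.1 voom, a replicate block, a fit of these 2 groups only, an adjusted p of 0.1, a Kupffer covariate, leaving out the genes of other cells and leaving out each library; a crossed and a same-number block with only these 2 groups were chosen after seeing the data.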

Additional observations from a re-analysis of the deposited data

How the results depend on the processing

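No gene passed an adjusted p of 0.05 under the other scalings, the stricter filter (minimum count of 50), an adjusted p of 0.1, limma voom, the 2 groups alone, the Kupffer covariate, removal of other cells' genes, any block or any library left out; DESeq2 called 307 and edgeR without a filter on low counts 54, all of them also called by DESeq2 and 18 of them not counted in WT_NCD. Genes with an unadjusted p under 0.05 numbered 887, and 624 to 1187 with each library left out (343 to 833 higher, 223 to 394 lower); DESeq2 gave 918 higher. The labels number replicates 1 and 2 in each diet but do not say that the numbers pair libraries, and same-numbered libraries did not deviate together (correlation -0.10). With the replicate block the count was 514 (339 higher, 175 lower), and with a same-number replicate block on the 2 groups alone 369 (211 higher, 158 lower). A crossed replicate block on the 2 groups alone gave 665, of which 471 were higher and 194 lower. Of the 95 genes whose fold change is printed in the sections above none turned sign under any alternative run, and DESeq2 called 46. The libraries of the 2 diets do not overlap in these genes, so leaving out 1 library could not turn their sign. Many were also chosen by small p in these same libraries, so neither count is separate support. Genes given above by their levels alone are not among the 95, and some of them did turn sign. For example, Cd4, given above by its levels, had a log2 fold change of -0.59, which became 0.33 without WT_NCD replicate 2. The cause of these differences was not tested. With 2 libraries a diet and a variation of 91.3% between libraries, changes of 4-fold or less were rarely called in the simulated data. Those data held no other difference between the diets, so the share missed in the real libraries is not known.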

Other observations

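Some genes followed the replicate number in both diets rather than the diet, and those given here were picked after their values were seen. Tnfrsf4, the costimulatory receptor OX40, had 87.8 and 19.97 against 115 and 28.2 CPM. Il22, a cytokine that acts on hepatocytes, had 8.25 and 0 against 10.3 and 0 CPM. Odc1, Dgat1 and Areg, described above, were ordered in the same way, with replicate 1 of each diet above replicate 2 of each diet. Other genes described above, such as Gzmb and Ifngr1, had this order too, and genes with it were not counted. Over all tested genes the deviations of same-numbered libraries from their group means had a correlation of -0.10.

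Some genes that nearly all cells use were counted at low levels in every library. Gapdh, a glycolytic enzyme, had 12.2 and 23.9 against 19.4 and 14.8 CPM, against 293 and 421 against 341 and 288 CPM for Pgk1 of the same pathway. Among ribosomal protein genes Rpl38 had 0.809 and 0.902 against 1.16 and 2.15 CPM, Rpl24 had 0.455 and 0.258 against 0.883 and 0.42002 CPM and Rps15 had 1.01 and 1.89 against 1.39 and 1.47 CPM, while Rps6 had 951 and 1851 against 904 and 971 CPM. These levels are not per length, and how reads that match several places in the genome were counted is not stated by the labels.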
